A study of Mus musculus with 17 samples.

Results

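The genes described here set whether a cell leaves the first gap phase of its cycle: the CIP/KIP inhibitors Cdkn1a (p21) and Cdkn1b (p27), the INK4 inhibitors Cdkn2a, Cdkn2b and Cdkn2c, the D cyclins Ccnd1, Ccnd2 and Ccnd3, and the kinases Cdk4 and Cdk6. They were chosen by gene symbol, and all 10 were found among the 43430 Ensembl gene identifiers of each count table. The filter on low counts kept 9 of them in each comparison, among 12054 genes tested for ISRIB and 11223 for bleomycin. Cdkn2a was the member that fell below it in both.

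D cyclins bind CDK4 or CDK6, and the complexes phosphorylate the retinoblastoma family of pocket proteins, which releases E2F factors to switch on genes of DNA replication. INK4 inhibitors bind the kinases themselves. CIP/KIP inhibitors bind cyclin and kinase complexes, block CDK2, and also help cyclin D complexes to assemble. In the lung, alveolar epithelial type 2 (AT2) cells make surfactant and divide after injury to replace AT2 and type 1 (AT1) cells.

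The libraries came from AT2 cells sorted by flow cytometry from C57BL/6J mice, 2 months old, and the labels name no other allele. For the drug comparison, the mice had been given ISRIB, a small molecule that counters the integrated stress response by acting on the translation factor eIF2B, or vehicle, and cells were sorted 24 hours later (4 libraries each). These were poly(A)-selected libraries from 3 ng of RNA. For the injury comparison, cells were sorted 14 days after bleomycin, a DNA-breaking agent used to model lung fibrosis (5 libraries), or from naive mice (4 libraries). These were made with a stranded total-RNA kit from 0.35 ng. The treatment label of all 9 of these libraries is vehicle, and the titles of these and of the vehicle libraries also say saline. No dose is given for either agent, and the labels do not say whether a library was 1 mouse or a pool, so p-values measure the spread between these libraries, which may be partly technical.

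Total counts ran from 10493574 to 15727139 in the poly(A) libraries and from 3295257 to 6333166 in the total-RNA libraries, where the common biological coefficient of variation was 21.1%, against 7.66% in the poly(A) set. AT2 markers summed to 230000 to 234000 counts per 1000000 (CPM) in the poly(A) libraries, 95800 to 100000 in naive and 56700 to 109000 in bleomycin libraries, and none of the 13 was at 0. Of the markers for other cells, the lymphocyte list reached at most 1.52 CPM in any library. Airway markers summed to 4120 to 4610 CPM after vehicle and 2600 to 4450 CPM after ISRIB, the lowest in ISRIB 4. None of the 7 tested airway markers was called after ISRIB. The macrophage list without Lyz1 stood at 7.3 to 11.5 CPM in naive and 6.38 to 11.6 CPM in bleomycin libraries, with Marco and C1qa at 0 in both. Fibroblast markers summed to 5.67 to 13 CPM in naive and 19.7 to 132 CPM in bleomycin libraries, the highest in bleomycin 2, with Lum at 0 in both groups. Genes with a count numbered 17108 to 19763 in naive and 13940 to 17112 in bleomycin libraries, and ribosomal-RNA-like and mitochondrial genes took 21.6 to 30.2% and 16.6 to 23.8% of the counts. The part of these differences in the results was not tested beyond leaving those genes out of the fit, which called the same number of members. Along the second principal component of the total-RNA set, bleomycin 4 stood at 58.9, and the other libraries between -25.3 and 3.57. In sorted bulk cells, fewer cells of a type and less RNA per cell cannot be told apart.

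Levels between genes were compared as CPM per kilobase of annotated exon (RPKM). Ccnd1 had the highest level of the members in all 4 groups, at 59.4 ± 11.2 RPKM (SD, n = 4) after vehicle and 31.3 ± 3.69 (n = 4) in naive cells. Cdkn1b followed at 24.5 ± 1.28 after vehicle and 13.4 ± 1.56 in naive cells, in both groups without overlap with Ccnd1. Cdk4 came next, at 21.1 ± 1.68 RPKM after vehicle and 8.24 ± 0.956 in naive cells. After vehicle, Ccnd3 (12.4 ± 1.35) and Cdkn1a (11.03 ± 0.535) overlapped in range. Ccnd2 (8.89 ± 0.347), Cdkn2b (6.08 ± 1.04), Cdkn2c (2.49 ± 0.868) and Cdk6 (0.167 ± 0.0746 RPKM) followed without overlap. In naive cells the ranges of Cdk4 and Ccnd3, of Ccnd3 and Ccnd2, and of Ccnd2 and Cdkn1a overlapped. Within libraries, Cdk4 was above Ccnd3 in 4 of 4. Ccnd3 was above Ccnd2, and Ccnd2 above Cdkn1a, in 3 of 4 each. After ISRIB, Ccnd1 (47.9 ± 7.64 RPKM) again led, and Cdkn1b (21.8 ± 2.27) and Cdk4 (21.4 ± 0.921) overlapped. After bleomycin, Ccnd1 (76.9 ± 13.4 RPKM, n = 5) was followed by Cdkn1a without overlap, and then by Cdkn1b (10.03 ± 1.87), Cdk4 (9.79 ± 2.46) and Ccnd3 (8.80 ± 1.33), each overlapping the next. The place of Ccnd3 depended on the length used: its exon union spans 8775 bases and its principal transcript 2113, and on the second length it ranked 2 in vehicle and naive cells. On that length Cdk4 also stood above Cdkn1b in 3 of the 4 groups, at 33.4 against 24.5 RPKM after vehicle, 33.9 against 21.8 after ISRIB and 15.5 against 10.03 after bleomycin.

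After bleomycin, 4 of the 9 tested members rose and none fell at an adjusted p under 0.05 (edgeR's quasi-likelihood test with Benjamini-Hochberg adjustment over all genes). They were Cdkn1a, Cdkn2c, Ccnd1 and Ccnd3. Of these, Cdkn2c was under the filter's cutoff in the naive libraries and was tested only because bleomycin libraries were high. Among all genes tested, 20.5% were called in either direction, 11.2% as higher and 9.31% as lower. The count was 2 of 9, Cdkn1a and Ccnd1, without naive 1, 2 or 3, where 1690, 1718 and 1751 genes were called in all. The median log2 fold change was 0.42 over the 9 tested members and 0.0026 over all genes. In 3 of the 9 (Cdkn1a, Cdkn2b and Ccnd1) the bleomycin and naive libraries did not overlap, against 19.7% of all genes tested. Of these 3, Cdkn2b, with 7 counts in naive 1, could not pass the filter on the naive libraries alone.

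**Figure D1:**
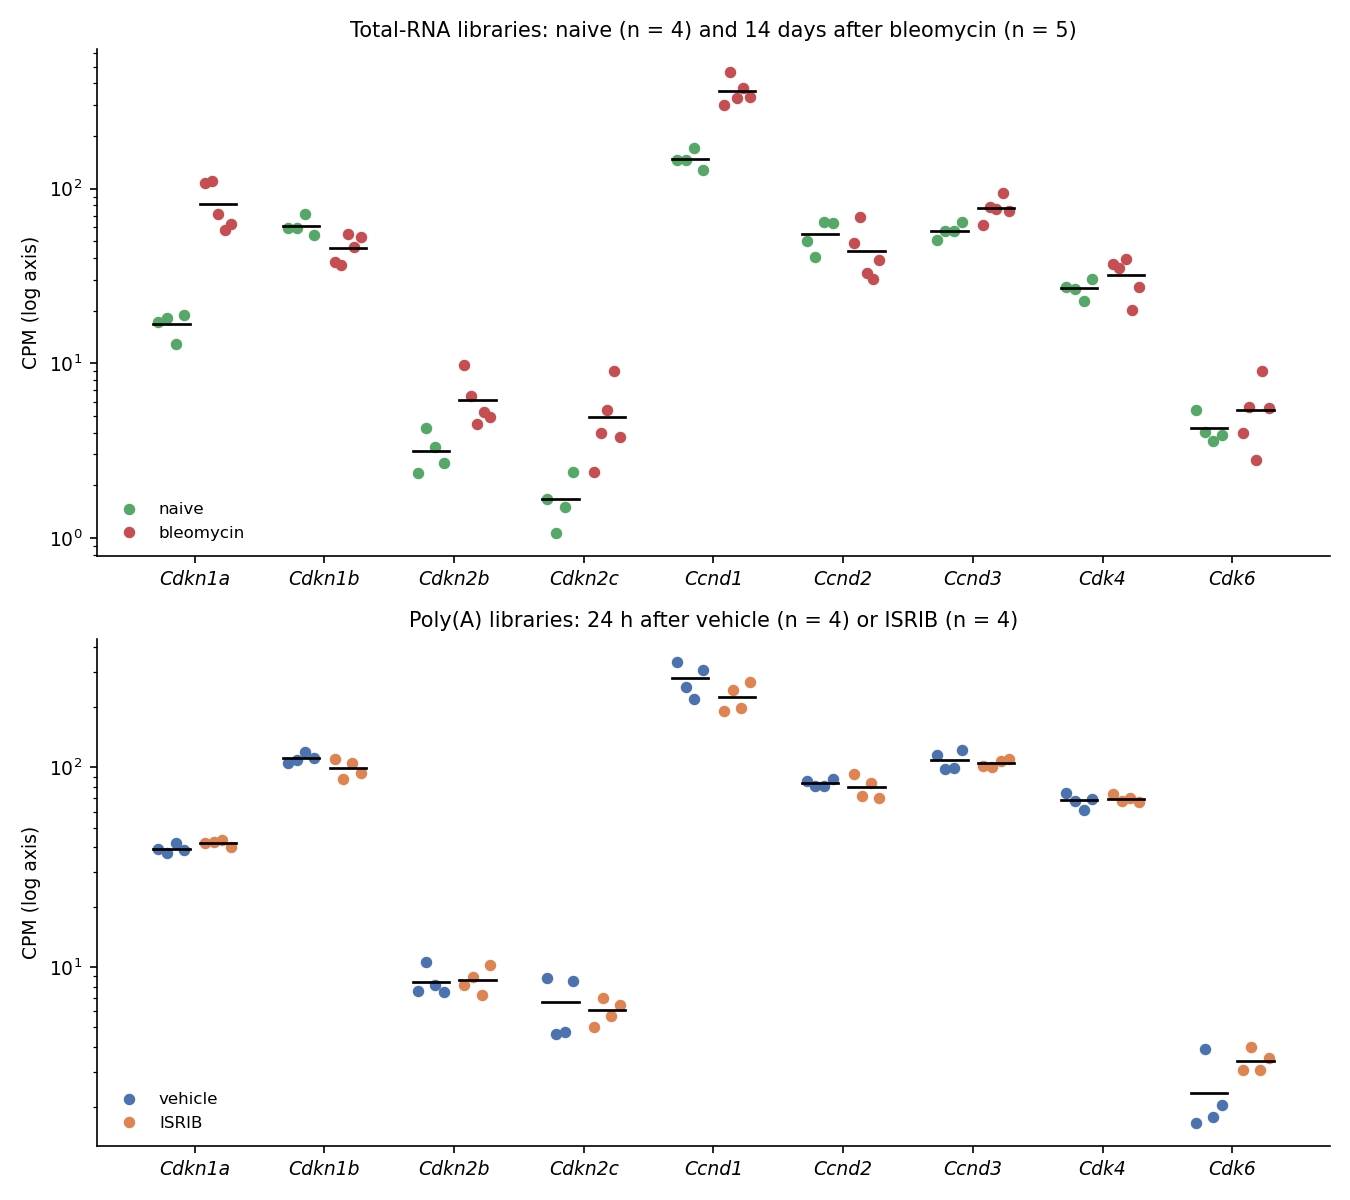
Level of each tested member in every library (CPM on a log axis; points are libraries, bars are group means), for the total-RNA set in the upper panel and the poly(A) set in the lower. Cdkn1a, Cdkn2b and Ccnd1 have all 5 bleomycin points above all 4 naive points, and no member separates ISRIB from vehicle.

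Cdkn1a encodes p21, the inhibitor that p53 induces after DNA damage, and lies on chromosome 17 (29090976 to 29100727, plus strand, GRCm38). Its level in the naive libraries was 17.1, 18.2, 12.9 and 18.8 CPM, and in the bleomycin libraries 107, 110, 71.5, 57.9 and 62.9 CPM. The lowest bleomycin library was above every naive library, and bleomycin 1 and 2 were higher than the other 3. The means were 16.7 ± 2.64 (SD, n = 4) and 82.0 ± 25.0 (n = 5), a ratio of 4.9. This was a log2 fold change of 2.29 ± 0.21 (SE; edgeR, adjusted p = 9.95e-07, 95% interval 1.84 to 2.73), which ranked 23 by p among 11223 genes. By RPKM, Cdkn1a moved from rank 6 of the members in naive cells to rank 2 after bleomycin, at 4.71 ± 0.744 and 23.1 ± 7.03 RPKM.

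Cdkn1a has 2 start sites in the RefSeq promoter table (GRCm38.p6), and the 250 bases before each are printed here because Cdkn1a had the lowest p of the members and differs between its starts in the motifs found. Capitals mark p53 half-sites in the first sequence, chr17:29090729-29090978, and GC boxes in the second, chr17:29093519-29093768, both on the plus strand, 5′ to 3′.
Cdkn1a, start at 29090979: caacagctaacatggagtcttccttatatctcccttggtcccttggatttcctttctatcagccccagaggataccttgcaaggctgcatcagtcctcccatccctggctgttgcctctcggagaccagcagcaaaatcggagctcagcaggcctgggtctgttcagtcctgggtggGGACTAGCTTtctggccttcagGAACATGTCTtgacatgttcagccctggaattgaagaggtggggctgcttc
Cdkn1a, start at 29093769: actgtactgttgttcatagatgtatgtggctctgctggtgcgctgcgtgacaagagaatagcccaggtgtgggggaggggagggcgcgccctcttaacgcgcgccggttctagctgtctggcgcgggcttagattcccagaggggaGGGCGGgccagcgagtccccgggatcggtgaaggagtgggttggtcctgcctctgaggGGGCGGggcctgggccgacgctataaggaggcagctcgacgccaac
The first window held 2 p53 half-sites and the second 2 GC boxes (GGGCGG). Windows of 250 bases before to 50 after a start were searched on both strands. A p53 half-site occurred in 8.36% of all 32851 such windows, and in 1 of the 12 windows of the 8 members in the table. A GC box occurred in 35.7% of all windows and in 9 of those 12. The AP-1 letters TGACTCA were in none of the 12 and in 5.20% of all, and E2F-type letters (TTTCGCGC, TTTGGCGC, TTTCCCGC or TTTGCCGC) were in 1, at a start of Cdkn2a, against 2.27% of all. Such matches describe letters, not binding, and the gene counts do not separate transcripts by start.

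Cdkn1b encodes p27, which holds resting cells out of the cycle (chromosome 6, 134920401 to 134925513, plus strand). It stood at 59.4, 59.2, 71.2 and 54.5 CPM in naive libraries and at 37.8, 36.3, 55.1, 46.4 and 52.7 CPM after bleomycin. The groups overlapped at 1 point, bleomycin 3 being above naive 4. The log2 fold change of -0.41 ± 0.15 did not pass the threshold (edgeR, adjusted p = 0.0567, 95% interval -0.73 to -0.10), and it did without bleomycin 3 (0.0355) or without bleomycin 5 (0.0485).

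The share of the summed RPKM of Cdkn1a and Cdkn1b held by Cdkn1a (Cdkn1c, the other CIP/KIP gene, was not included) went from 26.2% ± 5.10 (SD, n = 4) in naive to 68.5% ± 9.64 (n = 5) after bleomycin. The naive libraries lay between 18.9 and 30.6% and the bleomycin libraries between 60.4 and 79.6%. The exact permutation test over libraries gave p = 0.0159, two-sided and unadjusted, the smallest that 5 against 4 can give; 12 shares were tested over both comparisons. A share is taken within 1 library, so it does not depend on scaling between libraries.

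Cdkn2a and Cdkn2b lie side by side on chromosome 4, minus strand (89274471 to 89294653 and 89306299 to 89311039). Cdkn2a encodes p16 (INK4A) and, from another first exon, the p53-stabilising protein ARF, and gene counts do not separate them. It had 0 counts in all 8 poly(A) libraries, of 48347771 counts after vehicle and 50537564 after ISRIB, which allows up to 0.0621 and 0.0594 CPM for counting error only. In the total-RNA set it had 3 counts over the 4 naive and 1 over the 5 bleomycin libraries (exact permutation p = 0.333, two-sided). The highest library, naive 2, stood at 0.430 CPM, and at this depth no difference in Cdkn2a was detectable.

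Cdkn2b encodes p15, the INK4 inhibitor known as a target of TGF-beta signalling. Naive libraries held 2.35, 4.27, 3.30 and 2.68 CPM and bleomycin libraries 9.79, 6.50, 4.49, 5.26 and 4.91 CPM, so the groups did not overlap, though bleomycin 3 was close to naive 2. These values rest on 47 and 150 counts in all. The log2 fold change of 0.94 ± 0.40 missed the threshold (edgeR, adjusted p = 0.102, 95% interval 0.11 to 1.77). The 250 bases before its start at 89311032 (chr4:89311033-89311282, minus strand, 5′ to 3′) are printed because it was the 1 member window with the cyclic AMP response element (CRE) letters TGACGTCA, in capitals, which 1.79% of all windows held.
Cdkn2b, start at 89311032: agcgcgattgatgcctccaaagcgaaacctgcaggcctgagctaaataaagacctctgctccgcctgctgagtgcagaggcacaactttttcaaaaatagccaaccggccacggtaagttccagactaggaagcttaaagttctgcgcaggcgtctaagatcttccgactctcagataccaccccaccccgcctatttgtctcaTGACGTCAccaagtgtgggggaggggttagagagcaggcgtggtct

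Cdkn2c encodes p18 (chromosome 4, 109660876 to 109667189, minus strand), and it rose after bleomycin from a low level. Its 4 naive libraries held 1.68, 1.07, 1.501 and 2.38 CPM, and the 5 bleomycin libraries 2.38, 3.97, 5.42, 8.97 and 3.80 CPM. Bleomycin 1 was level with naive 4, and bleomycin 4 was the highest. The counts behind the groups were 23 and 119. In the fit, its log2 fold change was 1.57 ± 0.51 (edgeR, adjusted p = 0.035, 95% interval 0.50 to 2.64). The call rested on single libraries: without naive 1, 2, 3 or 4 the adjusted p was 0.0869, 0.118, 0.0985 or 0.0571, without bleomycin 4 it was 0.0591, and without bleomycin 2, 3 or 5 the gene fell below the count filter. It was also lost by limma-voom (adjusted p = 0.0954) and by edgeR with no filter (0.0555). Of the summed RPKM of Cdkn2a, Cdkn2b and Cdkn2c (Cdkn2d, the other INK4 gene, was not included), Cdkn2b held 74.1% ± 4.79 in naive and 69.8% ± 13.5 after bleomycin (exact permutation p = 0.571).

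Ccnd1 encodes cyclin D1, the D cyclin that growth factor signals induce (chromosome 7, 144929931 to 144939925, minus strand). The naive libraries stood at 145, 145, 171 and 129 CPM, and the bleomycin libraries at 301, 464, 330, 378 and 337 CPM. Every bleomycin library was above every naive library, and bleomycin 2 was the highest. Means were 147 ± 17.4 (SD, n = 4) and 362 ± 63.2 (n = 5), a ratio of 2.46, and the log2 fold change was 1.297 ± 0.14 (edgeR, adjusted p = 3.56e-06, 95% interval 1.01 to 1.58). On the opposite strand, LTO1 shares 1100 of the 4709 exon bases of Ccnd1 (23.4%), and LTO1 itself had a log2 fold change of 0.27 ± 0.27 (edgeR, adjusted p = 0.529). Whether the authors counted by strand is not stated in the labels, so reads from such a pair cannot be told apart.

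Ccnd3, encoding cyclin D3 (chromosome 17, 47505051 to 47599691, plus strand), rose with a smaller fold change. Naive libraries held 51.0, 57.5, 57.1 and 64.4 CPM and bleomycin libraries 62.2, 78.5, 76.3, 94.7 and 74.3 CPM. Only bleomycin 1 lay within the naive range, and bleomycin 4 was the highest. The log2 fold change was 0.42 ± 0.13 (edgeR, adjusted p = 0.0299, 95% interval 0.14 to 0.70). The adjusted p was 0.11, 0.0744 and 0.0772 without naive 1, 2 and 3, so the call was lost each time. Bysl, on the opposite strand, shares 4.11% of the Ccnd3 exon bases and had a log2 fold change of 0.57 ± 0.20 (edgeR, adjusted p = 0.0541).

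Ccnd2, encoding cyclin D2 (chromosome 6, 127125162 to 127152193, minus strand), had a log2 fold change of -0.30 ± 0.21 that did not pass (edgeR, adjusted p = 0.333, 95% interval -0.74 to 0.14). Its naive libraries stood at 49.98, 40.6, 64.6 and 63.2 CPM, and bleomycin libraries at 48.7, 68.6, 33.0, 30.3 and 39.1 CPM. Bleomycin 2 was the highest of all 9 and bleomycin 3, 4 and 5 were below every naive library. Without bleomycin 2 the log2 fold change was -0.52 and was called (adjusted p = 0.0487).

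Within the D cyclins the makeup per length shifted towards Ccnd1. Its share was 71.6% ± 3.77 (SD, n = 4) in naive and 85.02% ± 0.699 (n = 5) after bleomycin. The share of Ccnd2 was 13.3% ± 2.46 and 5.15% ± 1.41, and that of Ccnd3 15.1% ± 2.07 and 9.83% ± 1.38. For each of the 3 the groups did not overlap (exact permutation p = 0.0159, unadjusted, the smallest possible). The shares of 1 family sum to the whole and are not independent of each other. With principal transcript lengths the share of Ccnd1 was 52.4% and 68.9%, with the same p.

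**Figure D2:**
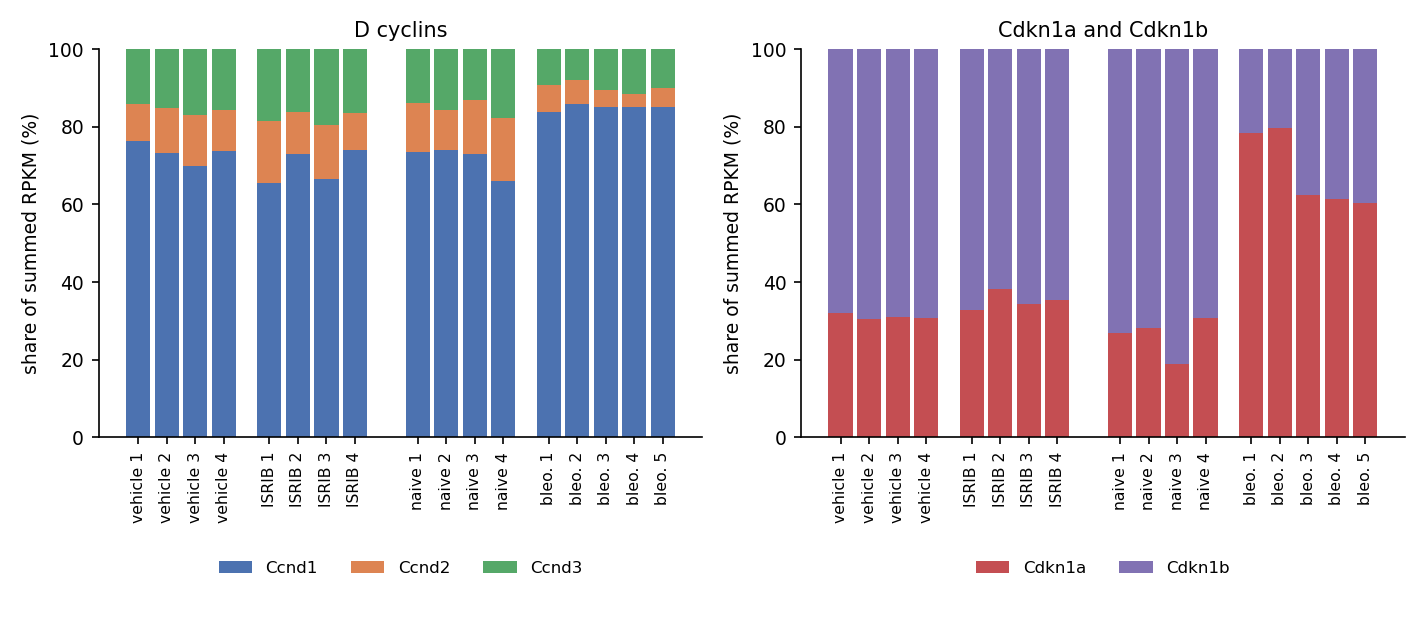
Share of the summed RPKM of the 3 D cyclins (left) and of Cdkn1a and Cdkn1b (right) held by each gene, in percent; each stacked bar is 1 library. Cdkn1a out of the pair (60.4 to 79.6% after bleomycin, 18.9 to 30.6% in naive cells) and Ccnd1 among the D cyclins separate the bleomycin from the naive libraries.

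Neither kinase passed the test after bleomycin. Cdk4 (chromosome 10, 127063534 to 127067920, plus strand) stood at 27.2, 26.7, 22.8 and 30.4 CPM in naive and 36.8, 35.2, 39.6, 20.1 and 27.2 CPM in bleomycin libraries, where bleomycin 4 was the lowest of all 9. Its log2 fold change was 0.26 ± 0.19 (edgeR, adjusted p = 0.377, 95% interval -0.14 to 0.66). Its opposite-strand neighbour Tspan31, which shares 19.7% of the Cdk4 exon bases, rose by 0.70 ± 0.16 (edgeR, adjusted p = 0.00493). Cdk6 (chromosome 5, 3341485 to 3531008, plus strand) ranged from 3.60 to 5.37 CPM in naive and from 2.79 to 8.97 CPM in bleomycin libraries, with a log2 fold change of 0.33 ± 0.41 (edgeR, adjusted p = 0.617, 95% interval -0.52 to 1.18). Cdk4 held 96.5% ± 0.626 of the kinase transcripts per length in naive and 95.7% ± 3.05 after bleomycin (exact permutation p = 0.841).

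No member passed the test after ISRIB: 0 of 9 were called by edgeR, against 2.20% of all genes tested. The count was also 0 with DESeq2 and limma-voom, and 2 members had an unadjusted p under 0.05, Ccnd1 and Cdkn1b. The median log2 fold change was -0.05 over the 9 members and -0.00014 over all genes. In 0 of 9 did the ISRIB and vehicle libraries separate, against 8.65% of all genes. An adjusted p above the threshold does not show equal levels, and the intervals below give the sizes that remain possible.

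**Figure D3:**
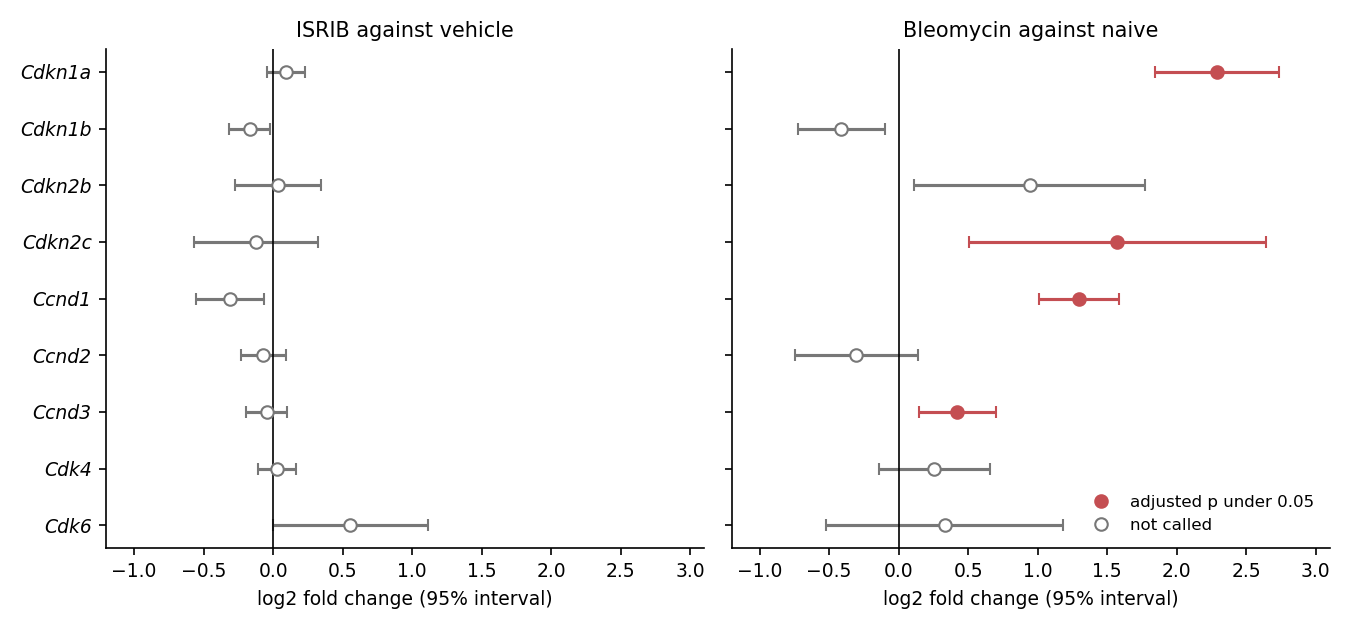
Log2 fold change of each tested member with its 95% interval, for ISRIB against vehicle on the left and bleomycin against naive on the right; filled points have an adjusted p under 0.05. The ISRIB estimates lie between -0.31 (Ccnd1) and 0.55 (Cdk6), and the bleomycin estimates between -0.41 (Cdkn1b) and 2.29 (Cdkn1a).

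The vehicle libraries of Cdkn1a stood at 39.0, 37.2, 41.8 and 38.8 CPM and the ISRIB libraries at 42.1, 42.4, 43.2 and 39.7 CPM. The groups overlapped between 39.7 and 41.8 CPM, and the log2 fold change was 0.09 ± 0.06 (edgeR, adjusted p = 0.525, 95% interval -0.04 to 0.23). Cdkn1b stood at 106, 109, 119 and 112 CPM after vehicle and 110, 87.8, 105 and 93.4 CPM after ISRIB. Its log2 fold change was -0.17 ± 0.07 (edgeR, adjusted p = 0.237, 95% interval -0.31 to -0.02). Within the pair, Cdkn1a held 31.1% ± 0.714 (SD, n = 4) per length after vehicle and 35.2% ± 2.24 (n = 4) after ISRIB. The ranges of this share, 30.5 to 32.1% and 32.9 to 38.2%, did not overlap (exact permutation p = 0.0286, unadjusted, the smallest that 4 against 4 can give, among 12 shares tested). ISRIB 2 and 4, the libraries lowest in Cdkn1b, stood at 15.3 and 21.2 on the first principal component. ISRIB 1 and 3 stood at 1.59 and 3.15 there. The part of this split in the share was not tested. Cdkn2b (7.25 to 10.6 CPM over the 8 libraries) had a log2 fold change of 0.03 ± 0.15, and Cdkn2c (4.61 to 8.86 CPM) one of -0.13 ± 0.21 (edgeR, adjusted p = 0.943 and 0.845).

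Of the cyclins, Ccnd1 stood at 337, 254, 220 and 308 CPM after vehicle and 192, 244, 199 and 267 CPM after ISRIB. Both groups spread widely, and 2 ISRIB libraries were below every vehicle library. The log2 fold change of -0.31 ± 0.12 did not pass (edgeR, adjusted p = 0.194, 95% interval -0.56 to -0.06); with no filter on low counts it was also -0.31 and was called (adjusted p = 2.88e-05). Ccnd2 (69.9 to 93.0 CPM over the 8 libraries) gave -0.07 ± 0.08, with a 95% interval of -0.23 to 0.09, and Ccnd3 (97.9 to 122 CPM) gave -0.05 ± 0.07, with an interval of -0.19 to 0.10. Ccnd1 held 73.3% ± 2.56 of the D-cyclin transcripts per length after vehicle and 69.8% ± 4.30 after ISRIB (exact permutation p = 0.229).

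Cdk4, the more abundant kinase, stood at 61.5 to 74.7 CPM after vehicle and 66.9 to 73.4 CPM after ISRIB, with a log2 fold change of 0.03 ± 0.06 (edgeR, adjusted p = 0.894, 95% interval -0.11 to 0.16). Cdk6 stood at 1.67, 3.89, 1.77 and 2.04 CPM after vehicle and 3.07, 4.004, 3.04 and 3.51 CPM after ISRIB. Vehicle 2 lay within the ISRIB range and the other 3 vehicle libraries below it. ISRIB gave Cdk6 a log2 fold change of 0.55 ± 0.26 on 110 and 172 counts (edgeR, adjusted p = 0.317, 95% interval -0.0042 to 1.11).

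Lists of genes around the members are given here as counts, beside the 11.2% of all genes called higher and 9.31% called lower after bleomycin. Of 12 tested pocket proteins, E2F and DP factors, 3 rose and 1 fell, with a median log2 fold change of 0.27. E2f8 (log2 fold change 3.71 ± 0.57) and E2f7 (2.07 ± 0.52), the repressive E2Fs that peak in S phase, rose with the activator E2f3 (1.32 ± 0.40), and the pocket protein Rbl2, typical of resting cells, fell by 0.66 ± 0.18. E2f8 and E2f7 had naive means of 0.613 and 1.09 CPM, and could not pass the filter on the naive libraries alone. Of 12 later cyclins, CDKs and their switches, 4 rose and none fell: Ccnb2 (3.55 ± 0.46), Ccna2 (3.15 ± 0.42), Cdk1 (2.77 ± 0.49) and Ccne1 (4.45 ± 0.90). These 4 had naive means of 0.7868, 1.361, 1.298 and 0.168 CPM, and could not pass the filter on the naive libraries alone. The median over the list was 0.17. ISRIB called none of the 11 and 13 tested genes of these lists, against 2.20% of all genes tested.

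Of 13 tested parts of the ubiquitin ligases that mark p27, p21 and D cyclins for degradation, 4 rose after bleomycin and none fell (11.2% and 9.31% of all genes), with a median log2 fold change of 0.11. Dtl, which directs p21 to its ligase, rose by 3.08 ± 0.49, its partner Ddb1 by 0.45 ± 0.12, and the CDK-binding proteins Cks1b by 2.83 ± 0.62 and Cks2 by 3.43 ± 0.87. Dtl, Cks1b and Cks2 had naive means of 0.862, 0.668 and 0.340 CPM, and could not pass the filter on the naive libraries alone. Of 20 tested upstream regulators of the Cdkn2a and Cdkn2b locus and of Cdkn1a, 3 rose and 2 fell (median -0.15), a share of called genes near the 20.5% of all genes. Id1 (1.62 ± 0.32), Ets1 (1.05 ± 0.29) and the Polycomb methyltransferase Ezh2 (0.90 ± 0.24) rose, while the Polycomb reader Cbx7 fell by 1.01 ± 0.16 and the p53 inhibitor Mdm4 by 0.54 ± 0.14. After ISRIB, which called 2.20% of all genes in either direction, 2 of the 20 rose and none of the 12 tested ligase parts passed. The 2 were the forkhead factors Foxo3 (0.67 ± 0.08, edgeR, adjusted p = 0.000453) and Foxo1 (0.37 ± 0.07, edgeR, adjusted p = 0.0152). The other CDK inhibitors, Cdkn1c and Cdkn2d, were called in neither comparison. After ISRIB, Cdkn2d had a log2 fold change of -0.45 ± 0.15 (edgeR, adjusted p = 0.139). Its ISRIB libraries all lay below its vehicle libraries, and 8.65% of all genes tested separated in either direction.

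**Figure D4:**
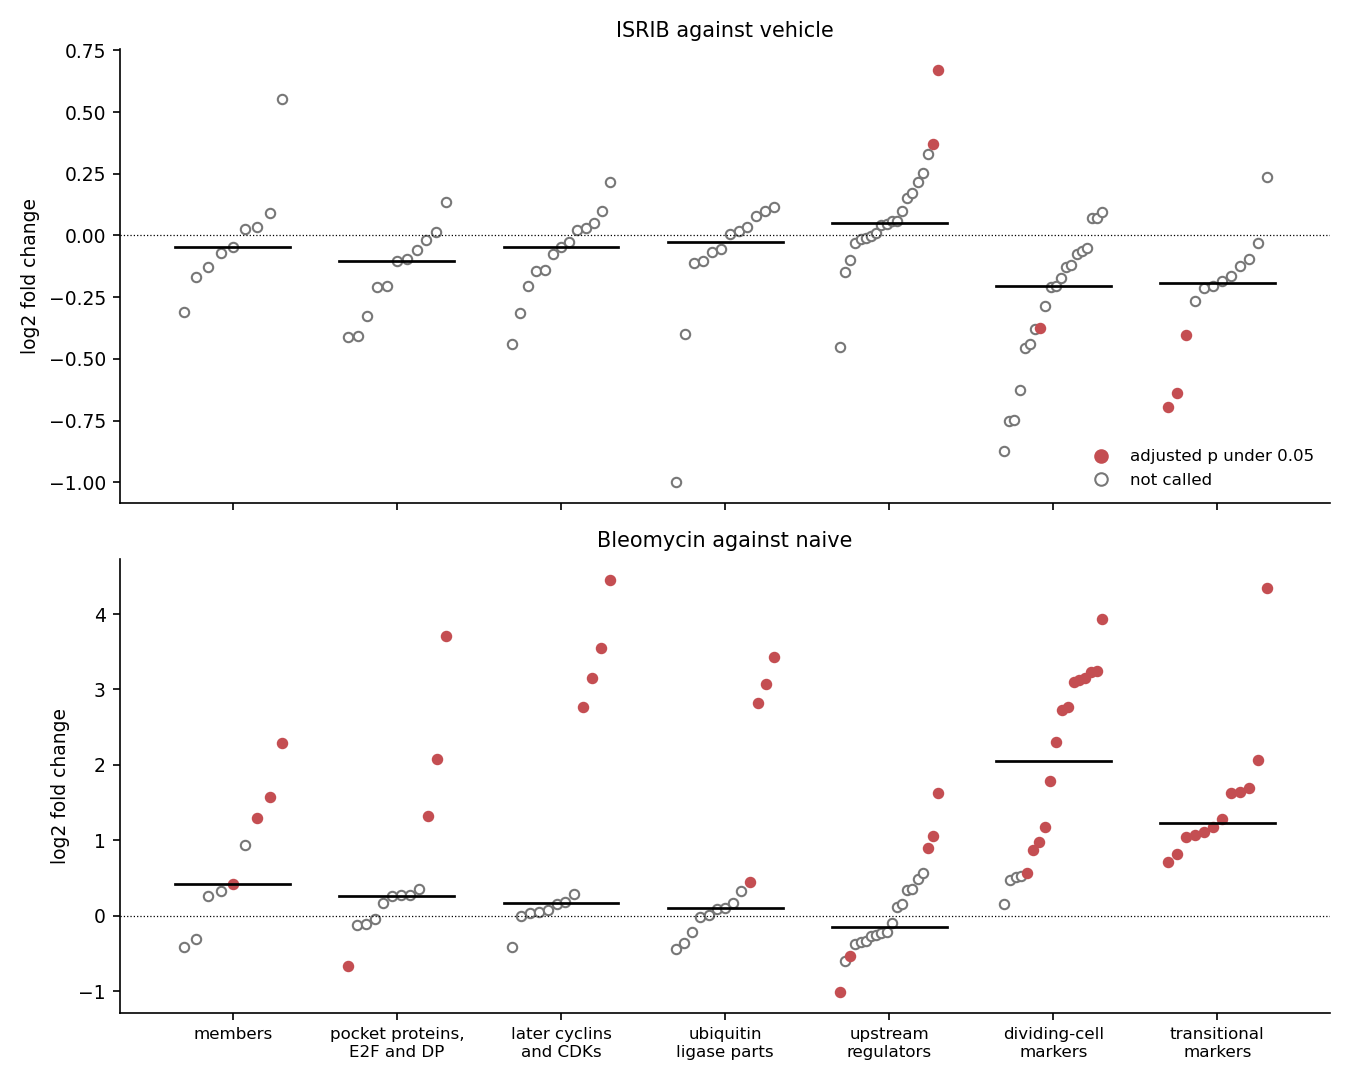
Log2 fold changes of the tested genes of each list in both comparisons; points are genes (filled where the adjusted p is under 0.05) and bars are list medians. Markers of dividing cells have a median of 2.04 after bleomycin, while the medians of the pocket protein and E2F list (0.27) and of the later cyclins and CDKs (0.17) lie near 0. The list of dividing-cell markers and that of later cyclins and CDKs share Ccna2, Ccnb1 and Cdk1.

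Markers of other states also moved. Their counts stand beside the 11.2% of all genes called higher and 9.31% called lower after bleomycin. Of 18 tested markers of dividing cells, 14 rose after bleomycin, among them Mki67 (3.94 ± 0.27), Top2a (3.23 ± 0.30), Cenpf (3.103 ± 0.29), Cdc20 (2.73 ± 0.34) and Mcm3 (2.31 ± 0.29). Their summed level was 115 to 174 CPM in naive and 525 to 832 CPM in bleomycin libraries. All 12 transitional alveolar epithelial markers rose (508 to 571 CPM against 1110 to 1520 CPM), as did 6 of 8 AT1 markers, led by Pdpn. Of the fibroblast markers, 3 of the 4 tested rose (Col1a1, Col3a1 and Col1a2). Col1a1, Col1a2 and Pdpn had naive means of 1.35, 1.25 and 1.34 CPM, and could not pass the filter on the naive libraries alone. The same held for Ccna2, Cdk1, Rrm2 and Birc5 among the 14 dividing-cell markers that rose. Their naive means were 1.361, 1.298, 1.066 and 0.9162 CPM. It also held for Cldn4 among the transitional markers (0.5216 CPM). These genes were tested only because bleomycin libraries were high. Of 6 tested endothelial markers, Vwf (1.79 ± 0.46) and Cdh5 (1.45 ± 0.41) rose. The list summed to 22.4 to 31.4 CPM in naive and 24.9 to 89.2 CPM in bleomycin libraries. None of its genes was at 0 over a whole group, though up to 2 were at 0 in single libraries of both groups. Of 7 tested airway markers, the ciliated-cell genes Foxj1 (2.28 ± 0.52) and Ccdc153 (1.72 ± 0.49) rose. The list summed to 687 to 1130 CPM and 779 to 1620 CPM, again with none at 0 over a whole group. Of 13 tested AT2 markers, Sftpd and Napsa rose and Nkx2-1 and Etv5 fell. Of 3 tested macrophage markers, Lyz1 fell and the others were not called. Lyz1 had a naive mean of 769 CPM, while the other 13 genes of its list summed to 7.3 to 11.5 CPM in naive libraries. The part of these markers in the rise of Cdkn1a, Cdkn2c, Ccnd1 and Ccnd3 was not tested. After ISRIB, 2.20% of all genes were called in either direction. Of 20 markers of dividing cells, 1 was called, Mcm6, which fell by 0.37 ± 0.08, and the list's median was -0.20. Its summed level was 175 to 309 CPM after vehicle and 186 to 226 CPM after ISRIB. Of the 12 transitional markers, 3 fell after ISRIB, Hbegf (-0.64 ± 0.11), Krt19 (-0.40 ± 0.08) and Sprr1a (-0.70 ± 0.15), and the list summed to 665 to 804 CPM after vehicle and 574 to 692 CPM after ISRIB. Of 13 AT2 markers, 1 was called, Etv5, which fell by 0.28 ± 0.05.

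The 3 genes whose log2 CPM was most like that of Cdkn1a over the 9 total-RNA libraries were Coro1c (Pearson r = 0.993), Sorcs2 (0.991) and Retnla (0.989), a likeness that includes the separation of the groups. For Ccnd1 over the 8 poly(A) libraries they were Tbl3 (r = 0.987), Chid1 (0.985) and Cdc20 (0.977). The libraries of each set share kit and depth range, and the values are a description.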

How the data were processed

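The authors deposited 1 table of raw counts per gene for each library kit. Per the submitters' processing notes, the tools were bcl2fastq 2.19.1, FastQC, Trimmomatic 0.36, STAR 2.6.0 and HTSeq 0.11.2, on mm10. The annotation behind the counts and any strand option were not given in the sources used here. Positions and exon lengths came from GENCODE M21 (GRCm38), matched by Ensembl identifier.

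Each table was fitted alone with edgeR 4.0.16 (R 4.3.3): filterByExpr by group (minimum count 10), TMM scaling, glmQLFit and glmQLFTest, with Benjamini-Hochberg adjustment over all genes tested and a threshold of 0.05. No value was compared across kits by a test, since kit and study arm cannot be told apart. The script was tested on simulated data. CPM used the TMM-scaled library size (for Cdkn2a, the raw total), and family shares used CPM per exon length with two-sided exact permutation tests over libraries. Named genes were every member, up to 5 called genes of each list with the lowest p, and the 3 genes most correlated with the member of lowest p. Some called genes were also named for a low naive mean. The members and lists were chosen with earlier results of these data known. Alternatives were DESeq2 1.42.0, limma-voom (limma 3.58.1), RLE size factors, no filter, a replicate block, leaving out ribosomal-RNA-like and mitochondrial genes, and leaving out each library. Principal transcript length was an alternative chosen after seeing the data. Total counts were 3295257 to 15727139 per library, and limits on counts of 0 cover counting error only.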

Additional observations from a re-analysis of the deposited data

Results flagged for a closer look

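Of 38 groups of values looked at, 2 held a library far from the others of its group, and chance gives about 1 in 20. Cdk6 in vehicle 2 stood at 3.89 CPM, against 1.67 to 2.04 CPM in the other 3 vehicle libraries. Cdkn2a in bleomycin 2 stood at 0.188 CPM, which is a single count, against 0 in the other 4 bleomycin libraries.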

How the results depend on the processing

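Across RLE size factors, DESeq2, limma-voom, no filter, the replicate block, leaving out ribosomal-RNA-like and mitochondrial genes and leaving out each library, Cdkn1a (log2 fold change 2.16 to 2.39) and Ccnd1 (1.195 to 1.37) stayed called as higher after bleomycin. Between 2 and 4 members were called after bleomycin when 1 library was left out, with 2 without naive 1, 2 or 3. ISRIB called 265 genes, 406 with DESeq2, 648 with no filter, and 86 to 269 when 1 library was left out (86 without vehicle 1, 102 without vehicle 2, 159 without ISRIB 4); the cause was not tested. Members called for ISRIB numbered 1 with no filter and 0 otherwise. Across all 14 alternative settings, ISRIB log2 fold changes that missed the threshold crossed 0 for Cdkn2b (-0.0504 to 0.156), Cdkn2c (-0.277 to 0.0449), Cdk4 (-0.0239 to 0.0716) and Ccnd3 (-0.0927 to 0.0097). With no filter the median log2 fold change of all genes after bleomycin was -0.27. Same-numbered libraries correlated at -0.109 to 0.0849 (ISRIB) and -0.0393 to 0.0474 (bleomycin), so the numbers were not taken as pairs. With the replicate block, 277 genes and 0 members were called for ISRIB and 2187 genes and 4 members for bleomycin, where Cdkn1b was called (-0.49, edgeR, adjusted p = 0.0308) and Cdkn2c was not (0.0613). Low counts limited Cdkn2a, Cdkn2b, Cdkn2c and Cdk6.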
